A study of Mus musculus with 6 samples.

Results

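The lipoprotein lipase system and the receptors that take up lipid were described in brown adipose tissue of mice. The 10 genes were listed by name (Lpl, Gpihbp1, Lmf1, Angptl2, Angptl4, Angptl8, Cd36, Vldlr, Lrp1 and Scarb1), and each was found as 1 row among the 54385 rows of the deposited count table. All 10 passed the filter on low counts, as did 14332 rows in all. C57BL/6N wild type (WT) and C57BL/6N ADCY3∆AT were compared, 3 libraries each, from mice aged 20 weeks and fed chow. ADCY3∆AT is the knockout of Adcy3-AT, and the series title speaks of a truncated adenylyl cyclase 3 that is induced by cold. The sources used here do not give how the deletion was made, in which cells it acts, the sex of the mice or whether each library is 1 mouse. The sample labels call the tissue interscapular brown fat, while the series text calls it inguinal.

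In fat, adipocytes make lipoprotein lipase, which the chaperone LMF1 helps to fold in the endoplasmic reticulum. GPIHBP1 on capillary endothelium then carries the enzyme to the inner vessel wall, where it splits the triglycerides of passing lipoproteins into fatty acids that the tissue takes up. Angiopoietin-like proteins, ANGPTL4 above all in fat, switch the enzyme off, and brown fat is known as a major site of triglyceride clearance in the cold.

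Library totals ran from 13758492 to 19592156 estimated counts. Adcy3 itself was at 166 to 248 CPM (counts scaled by library size with the trimmed mean of M-values, TMM) in WT and 167 to 239.8 CPM in ADCY3∆AT. A row with no gene symbol, whose identifier ends in the same digits as that of Adcy3, held 215, 197 and 118 CPM in WT and 1.27, 0 and 0 CPM in ADCY3∆AT. The 8 adipocyte markers, Ucp1 and Cidea among them, summed to 21472 to 22447 CPM in WT and 20196 to 21011 CPM in ADCY3∆AT, and none was at 0. Of the 8, 4 had positive and 4 negative log2 fold changes, with 0 called by edgeR and 0 at an unadjusted p under 0.05. The 10 skeletal muscle markers summed to 22.1, 110.4 and 654 CPM in WT replicates 1, 2 and 3 and to 1.27 to 2.75 CPM in ADCY3∆AT, where Myh1, Ckm, Tnnt3, Actn3 and Tnni2 were at 0 in at least 1 library. Of the 8 muscle markers tested, 7 were called lower by edgeR, against 1.67% of all tested genes. Muscle also makes Lpl, Cd36 and Vldlr. Without WT replicate 3 their log2 fold changes (ADCY3∆AT minus WT) were -0.21, 0.22 and 0.26, against -0.23, 0.18 and 0.24 with all 6 libraries. In that fit the muscle sums of WT replicates 1 and 2 were still above those of ADCY3∆AT. In bulk tissue, fewer cells of a type and less RNA per cell cannot be told apart.

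Of the 10 genes, 2 were called between the genotypes at an edgeR adjusted p under 0.05, against 4.30% of all tested genes. Angptl4 rose (2.63% of all tested genes were called higher) and Angptl8 fell (1.67% were called lower). In 8 of the 10 genes the 3 libraries of a genotype all lay above the 3 of the other, which 29.0% of all tested genes did. ADCY3∆AT libraries were above WT in 5 of them (Angptl4, Cd36, Vldlr, Lrp1 and Scarb1; 15.1% of all tested genes) and below WT in 3 (Lpl, Angptl2 and Angptl8; 13.9%). The same 8 had an unadjusted edgeR p under 0.05, as had 22.6% of all tested genes. The 10 genes were chosen with earlier results of these data known, so these counts and shares are a description and no test. The median log2 fold change was 0.13 over the 10 genes and -0.01 over all tested genes. Over all tested genes 377 calls were higher and 239 lower in ADCY3∆AT, a split that was 282 and 274 with upper-quartile scaling.

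**Figure D1:**
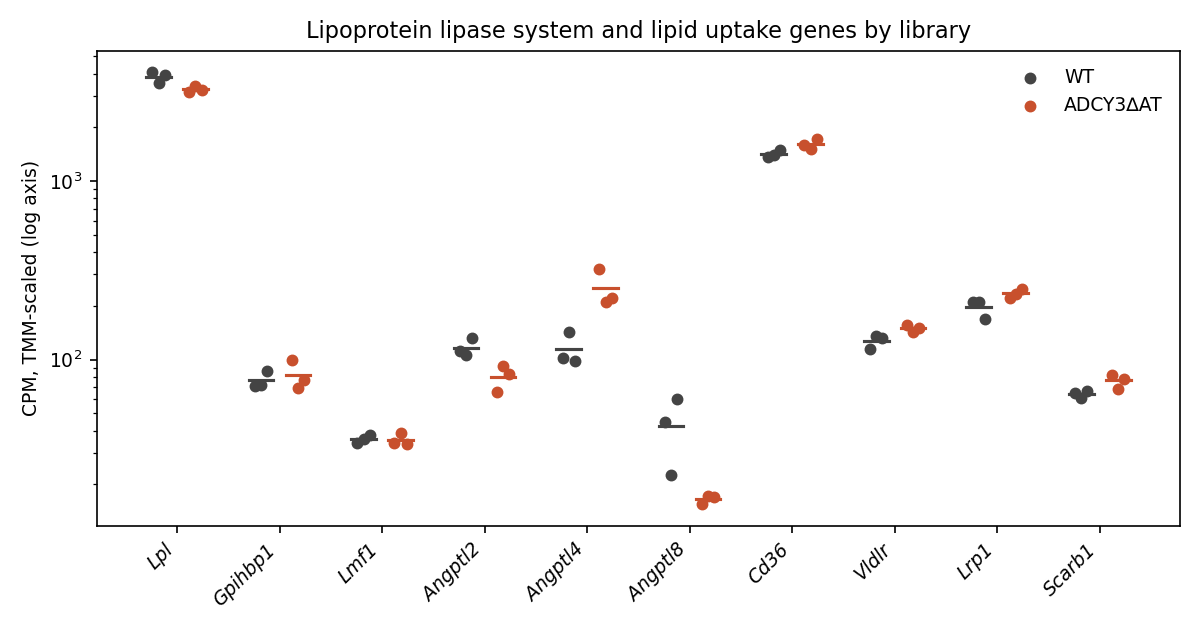
Each point is the CPM of 1 library on a log axis and each bar the mean of 3, in grey for WT and orange for ADCY3∆AT. Angptl4 stood higher and Angptl8 lower in all 3 ADCY3∆AT libraries, while Gpihbp1 and Lmf1 overlapped between genotypes.

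The 6 of the 10 genes with an entry in the RefSeq promoter table (GRCm38.p6) had 7 windows, since Vldlr has 2 starts. The 250 bases before the start of Angptl8, the called gene with an entry, are shown beside those of Angptl2, which had the next largest log2 fold change downward among the 10 genes. Both are on the plus strand, at chr9:21835260-21835509 and chr2:33215711-33215960. Capitals mark GGTCA on either strand, the core that nuclear receptors bind.
Angptl8: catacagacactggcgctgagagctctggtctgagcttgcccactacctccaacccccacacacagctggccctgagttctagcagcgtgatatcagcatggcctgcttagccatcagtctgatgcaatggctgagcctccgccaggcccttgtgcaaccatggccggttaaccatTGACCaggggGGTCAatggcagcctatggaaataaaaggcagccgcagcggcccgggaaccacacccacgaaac
Angptl2: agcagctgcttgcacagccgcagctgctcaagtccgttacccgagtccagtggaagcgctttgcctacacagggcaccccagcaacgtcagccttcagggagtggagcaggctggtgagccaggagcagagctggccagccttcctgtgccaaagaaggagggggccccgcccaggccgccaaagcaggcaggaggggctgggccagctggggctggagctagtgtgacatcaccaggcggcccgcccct
The Angptl8 window held GGTCA once on each strand, from 74 to 70 bases and from 64 to 60 bases before the start, and the Angptl2 window had no match. Among the other 5 windows, 1 match to GGTCA was found, in Cd36. A match on either strand occurred in 35.2% of 32841 windows of this length in the whole table. Windows with the sterol regulatory element core TCACNCCA (3.68% of all windows), the cyclic AMP response element TGACGTCA (1.55%), the E-box CACGTG (6.02%) and the TATA box TATAAA (12.4%) numbered 0 of the 7. CCAAT, found in 33.9% of all windows, was in those of Cd36 and 1 of Vldlr. These matches are letters only and no binding was measured.

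Lpl, the enzyme itself (ENSMUSG00000015568, chromosome 8, 68880491 to 68907448, plus strand, GRCm38), had the highest CPM of the 10 genes and a slightly lower value in ADCY3∆AT that was not called. It held 4062, 3528 and 3927 CPM in WT and 3157, 3423 and 3254 CPM in ADCY3∆AT. Each ADCY3∆AT library was below each WT library, with WT replicate 2 the nearest. The log2 fold change was -0.23 (95% interval -0.40 to -0.05, edgeR adjusted p = 0.130), or 1.17-fold lower. The exact permutation p was 0.1, two-sided, the smallest that 3 against 3 libraries allow.

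The folding and transport partners of the enzyme did not separate the genotypes. Lmf1 (ENSMUSG00000002279, chromosome 17, 25579085 to 25662826, plus strand), the lipase maturation factor, held 34.3, 35.8 and 37.8 CPM in WT and 34.0, 38.7 and 33.8 CPM in ADCY3∆AT. The libraries overlapped (log2 fold change -0.02, from -0.21 to 0.17 at 95%, edgeR adjusted p = 0.914), and the interval ran from 0.863-fold to 1.13-fold. Gpihbp1 (ENSMUSG00000022579, chromosome 15, 75596628 to 75599481, plus strand), the endothelial carrier, held 71.4, 72.2 and 86.5 CPM in WT and 99.2, 68.9 and 76.4 CPM in ADCY3∆AT. ADCY3∆AT replicate 1 was the highest and replicate 2 the lowest of all 6, and the log2 fold change of 0.09 (95% interval -0.23 to 0.41, edgeR adjusted p = 0.756) was -0.068 without ADCY3∆AT replicate 1. The sign of Lmf1 turned in 4 of 14 alternative fits.

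Gpihbp1 was also set against the 12 endothelial markers, of which 0 were called by edgeR and 8 had an unadjusted p under 0.05 (22.6% of all tested genes). The 8 went both ways, with Flt1, Tie1, Cldn5 and Esam at positive and Kdr, Emcn, Egfl7 and Plvap at negative log2 fold changes. The sum of the 12 was 785 to 889 CPM in WT and 857 to 991 CPM in ADCY3∆AT, with the highest sum in ADCY3∆AT replicate 1, the library that was highest for Gpihbp1. The ratio of Gpihbp1 to that sum was 0.0809, 0.0822 and 0.111 in WT and 0.101, 0.0809 and 0.0894 in ADCY3∆AT. The genotypes overlapped in this ratio (exact permutation p = 1, two-sided).

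Angptl4, which unfolds and inactivates lipoprotein lipase, was the member that rose. Its gene (ENSMUSG00000002289) spans 33773750 to 33781830 of chromosome 17 (minus strand). It held 102, 142 and 98.0 CPM in WT and 322, 211 and 222 CPM in ADCY3∆AT. WT replicate 2 stood above the other WT libraries and ADCY3∆AT replicate 1 above the other ADCY3∆AT libraries, with no overlap. The rise was 2.21-fold (log2 fold change 1.14, SE 0.19, 95% interval 0.70 to 1.59, edgeR adjusted p = 0.0194; exact permutation p = 0.1, two-sided). The call ended without WT replicate 1 (1.07, adjusted p = 0.0908 in edgeR) and without WT replicate 3 (1.05, adjusted p = 0.0700 in edgeR).

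Angptl8, the family member that lacks the fibrinogen-like domain and works in complex with other members such as ANGPTL4, fell. Its gene (ENSMUSG00000047822) spans 21835510 to 21837347 of chromosome 9 (plus strand). It had 686, 304 and 1073 estimated counts in WT and 282, 260.2 and 335 in ADCY3∆AT, or 44.8, 22.5 and 60.5 CPM in WT and 15.5, 17.3 and 17.0 CPM in ADCY3∆AT. The ADCY3∆AT libraries lay close together (16.6 ± 0.932 CPM, SD, n = 3) while the WT libraries were spread widely (42.6 ± 19.1 CPM, SD, n = 3). The level was 2.58-fold lower in ADCY3∆AT (log2 fold change -1.37, SE 0.30, 95% interval -2.05 to -0.68, edgeR adjusted p = 0.0445). The call held in 1 of the 6 fits without 1 library, the one without WT replicate 2, and ended with limma-voom (adjusted p = 0.0773) and with the replicate number as a block (adjusted p = 0.0741 in edgeR). The log2 fold change stayed between -1.67 and -1.03 in the 6 fits without 1 library.

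Angptl2, a secreted relative known for its part in inflammation rather than as a lipase inhibitor, was lower in ADCY3∆AT without a call. Its gene (ENSMUSG00000004105) spans 33216069 to 33247717 of chromosome 2 (plus strand). It held 111, 106 and 131 CPM in WT and 65.4, 92.5 and 82.9 CPM in ADCY3∆AT, without overlap. The log2 fold change was -0.53 (95% interval -0.84 to -0.23, edgeR adjusted p = 0.0642), 1.45-fold lower, and the Wald test of DESeq2 called it (adjusted p = 0.00416). The 7 fibroblast and matrix markers, cells in which Angptl2 is also made, summed to 283 to 442 CPM in WT and 244 to 400.0 CPM in ADCY3∆AT, with 0 called by edgeR and 0 at an unadjusted p under 0.05. Against that sum, Angptl2 was at 0.395, 0.317 and 0.298 in WT and 0.270, 0.287 and 0.208 in ADCY3∆AT, again without overlap (exact permutation p = 0.1, two-sided).

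Angptl8 and Angptl4, the 2 called genes, were also set against each other within each library. The ratio of Angptl8 to Angptl4 CPM in a library was 0.443, 0.161 and 0.619 in WT and 0.0496, 0.0841 and 0.0785 in ADCY3∆AT. The means of the log2 ratios differed by -2.36, or 5.13-fold lower in ADCY3∆AT. Since neither gene overlapped between genotypes and they moved in opposite directions, this ratio could not overlap, and it is given as a description with no test. Within WT, the library with the highest Angptl4 (replicate 2) had the lowest Angptl8.

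The ratio of Angptl4 to Lpl CPM was 0.0251, 0.0405 and 0.0251 in WT and 0.102, 0.0617 and 0.0684 in ADCY3∆AT, 2.57-fold higher in ADCY3∆AT. Cd36 to Lpl and Vldlr to Lpl were 1.33-fold and 1.38-fold higher. The single genes fix the direction of these 3 ratios, so they carry no test. Lmf1 to Lpl was 1.15-fold higher without overlap (exact permutation p = 0.1, two-sided, adjusted p = 0.138 over 11 ratios). The 11 include the ratios whose direction the separate values fix, and counting those lowers this adjusted p. Gpihbp1 to Lpl overlapped (exact permutation p = 0.3, two-sided). These ratios share Lpl, so they are not independent of each other.

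**Figure D2:**
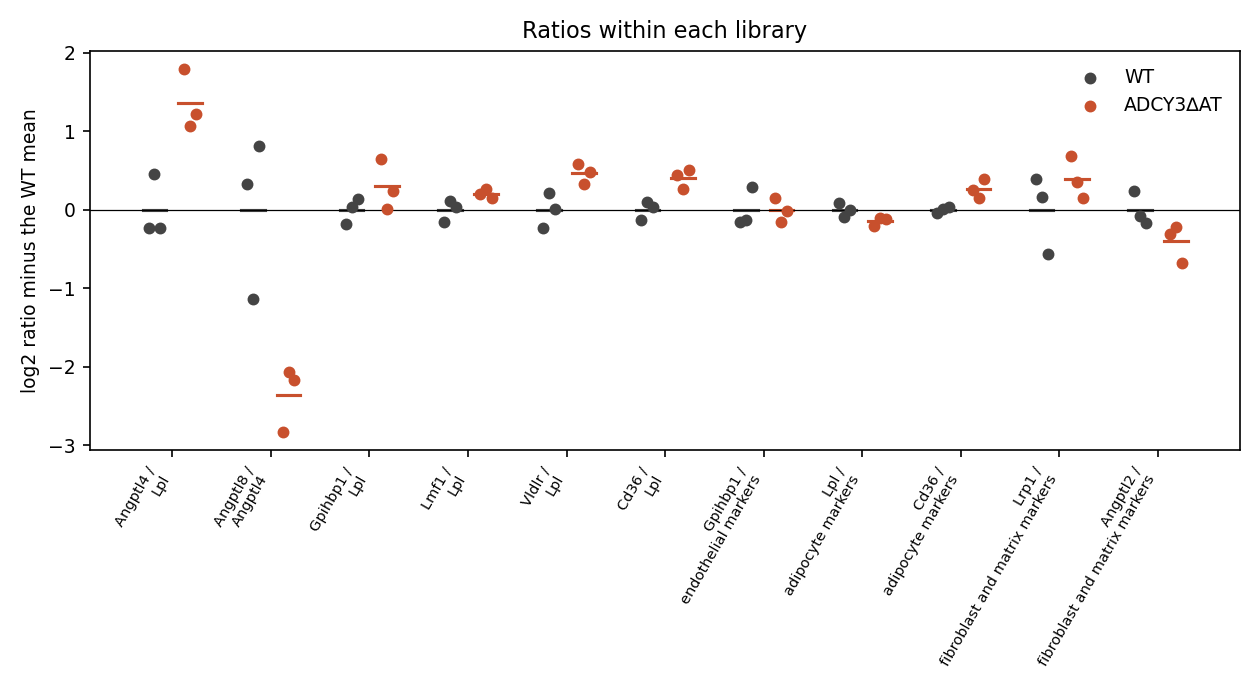
Each point is the log2 ratio of 2 genes, or of a gene and a summed marker list, in 1 library, minus the mean of the 3 WT libraries for that ratio, and bars are means of 3. The ratio of Angptl8 to Angptl4 was lower and that of Angptl4 to Lpl higher in all 3 ADCY3∆AT libraries, while Gpihbp1 to endothelial markers overlapped.

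The 4 receptors had small positive log2 fold changes, none of them called by edgeR. Cd36 (ENSMUSG00000002944, chromosome 5, 17781690 to 17888801, minus strand), the fatty acid translocase, held 1369, 1399.6 and 1489 CPM in WT and 1595, 1518 and 1714 CPM in ADCY3∆AT. The lowest ADCY3∆AT library was just above the highest WT library, and the log2 fold change was 0.18 (95% interval 0.02 to 0.35, edgeR adjusted p = 0.187). Against the summed adipocyte markers, Cd36 was at 0.0630, 0.0652 and 0.0663 in WT and 0.0770, 0.0722 and 0.0849 in ADCY3∆AT, 1.20-fold higher, a direction that the separate values of Cd36 and of the sum already fix. Fabp4 and Ucp1, the highest of the 8 markers by CPM, each overlapped between genotypes (log2 fold changes -0.19 and -0.18). Positive log2 fold changes were found in 4 of the 8. Lpl against the same sum was at 0.187, 0.164 and 0.175 in WT and 0.152, 0.163 and 0.161 in ADCY3∆AT, 1.10-fold lower. The ratio of Lpl did not overlap between genotypes (exact permutation p = 0.1, two-sided), though WT replicate 2 (0.164) and ADCY3∆AT replicate 2 (0.163) nearly met.

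Vldlr (ENSMUSG00000024924, chromosome 19, 27216484 to 27254231, plus strand), which binds triglyceride-rich lipoproteins and helps lipoprotein lipase act, held 115, 136 and 132 CPM in WT and 157, 143 and 150.5 CPM in ADCY3∆AT. All 3 ADCY3∆AT libraries were higher (log2 fold change 0.24, from 0.05 to 0.42 at 95%, edgeR adjusted p = 0.137). Lrp1 (ENSMUSG00000040249, chromosome 10, 127538161 to 127621148, minus strand), a large receptor that clears lipoprotein remnants, held 209.8, 211 and 169 CPM in WT and 221, 233 and 249.8 CPM in ADCY3∆AT. WT replicate 3 was lowest, and the log2 fold change of 0.26 (95% interval 0.03 to 0.48, edgeR adjusted p = 0.171) was 0.16 without it.

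Scarb1 (ENSMUSG00000037936, chromosome 5, 125277087 to 125341094, minus strand), the receptor for high-density lipoprotein, held 64.9, 61.2 and 67.0 CPM in WT and 82.5, 68.7 and 78.0 CPM in ADCY3∆AT. ADCY3∆AT replicate 2 was nearest to WT, and the log2 fold change was 0.25 (95% interval 0.05 to 0.44, edgeR adjusted p = 0.135). The 4 receptors lay between 1.13-fold and 1.19-fold higher, and the smallest log2 fold change among the 616 called genes was 0.28 in size, or 1.21-fold. Lrp1 was called without a filter on low counts (log2 0.28, adjusted p = 0.0313 in edgeR). That fit called 1951 of 34083 tested genes, and its edgeR adjusted p for Angptl4 was 2.76e-35, against 0.0194 in the main fit. A call in that fit alone is therefore given with reserve. Lrp1 against the fibroblast and matrix markers overlapped between genotypes (exact permutation p = 0.5, two-sided). Macrophages also express Cd36 and Lrp1. The 10 macrophage markers summed to 68.2 to 121 CPM in WT and 66.7 to 120.5 CPM in ADCY3∆AT, with 0 called by edgeR and 0 at an unadjusted p under 0.05.

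**Figure D3:**
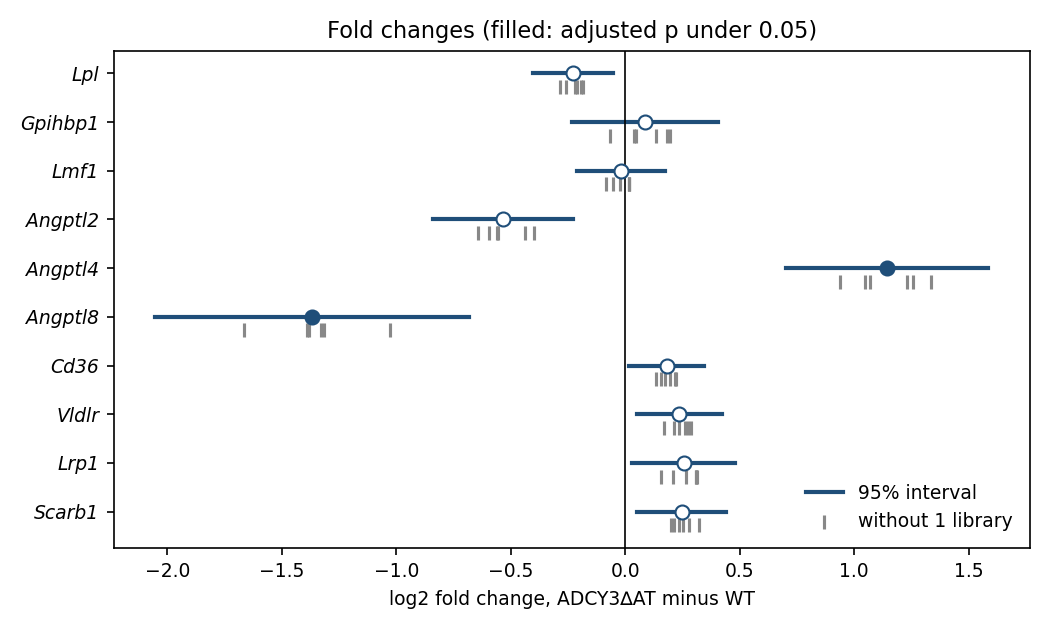
Log2 fold changes (ADCY3∆AT minus WT) are shown with 95% intervals, filled where called, and grey ticks give the value in each of the 6 fits without 1 library. Angptl4 and Angptl8 lay farthest from 0 on opposite sides, and the ticks of Gpihbp1 and Lmf1 fell on both sides of 0.

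The order of the 10 genes was read per length, as estimated counts per kilobase of the longest coding transcript of GENCODE M21, scaled to the same total in each library (length-scaled CPM). In WT, Lpl (1454 ± 114 length-scaled CPM, SD, n = 3) and Cd36 (650.2 ± 25.1) stood far above the other 8, whose means ran from 20.6 (Lrp1) to 76.7 (Angptl8). The WT libraries of Angptl8, from 40.3 to 108, overlapped with those of Gpihbp1 (72.3 ± 7.66), Angptl2 (54.2 ± 6.13), Angptl4 (53.6 ± 11.3) and Scarb1 (39.8 ± 1.91), so Angptl8 has no place of its own among them. Angptl2 and Angptl4 also overlapped with each other. Lmf1 (28.0 ± 1.19), Vldlr (24.9 ± 2.03) and Lrp1 (20.6 ± 2.59) followed, each apart from the next.

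In ADCY3∆AT, Lpl (1278 ± 100.3 length-scaled CPM) and Cd36 (758 ± 36.9) again led. Angptl4 (121 ± 26.0) came next and apart from Gpihbp1 (78.7 ± 12.7), while Angptl8 (30.7 ± 2.77) had rank 7 and overlapped with Angptl2 (38.7 ± 7.93), Vldlr (30.2 ± 0.371) and Lmf1 (28.5 ± 3.25). With the length of all annotated exons in place of the longest coding transcript, Cd36 came before Lpl in both genotypes. The annotated exons of Lpl cover 10478 bases, against 4115 in its longest coding transcript. In WT, that length also moved Angptl4 from rank 6 to 4, Vldlr from 9 to 7 and Lrp1 from 10 to 8. Downward it moved Scarb1 from 7 to 9, Lmf1 from 8 to 10, Gpihbp1 from 4 to 5 and Angptl2 from 5 to 6. In ADCY3∆AT it moved Angptl8 from rank 7 to 5, Lrp1 from 10 to 7 and Vldlr from 8 to 6. Scarb1 moved from 5 to 9, Angptl2 from 6 to 8 and Lmf1 from 9 to 10. The order below the leading genes therefore depends on the length used. No exon base of the 10 genes was shared with another annotated gene, so reads of an overlapping or antisense gene were not at issue for them.

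The genes also differed in how far replicates of 1 genotype spread. The median SD of log2(CPM + 0.5) within WT was 0.14 over all tested genes, and it was also 0.14 within ADCY3∆AT. Angptl8 had 0.72 within WT and 0.08 within ADCY3∆AT, and Angptl4 had 0.30 and 0.33. Lpl (0.11 and 0.06), Cd36 (0.06 and 0.09), Lmf1 (0.07 and 0.11), Vldlr (0.13 and 0.07) and Scarb1 (0.07 and 0.13) were under the median in both genotypes. Gpihbp1 (0.15 and 0.27) and Angptl2 (0.16 and 0.25) were above it in both, as was Angptl4. Lrp1 (0.18 and 0.09) was above it in WT alone.

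The wider pathway was read from 6 lists, in which edgeR called 3 of 80 tested genes, against 4.30% of all tested genes. These lists too were chosen with earlier results of these data known. Over all genes with an adjusted p, DESeq2 called 7.68% and limma-voom 3.66%, and 22.6% had an unadjusted edgeR p under 0.05. Of 15 tested lipase partners and apolipoproteins, edgeR and limma-voom called 0, DESeq2 called 2, and 3 were at an unadjusted p under 0.05 (median log2 fold change 0.11). Pcsk5, a proprotein convertase, held 7.70, 8.50 and 9.13 CPM in WT and 16.2, 13.0 and 11.1 CPM in ADCY3∆AT (log2 fold change 0.67, edgeR adjusted p = 0.0514, and 0.0430 without ADCY3∆AT replicate 3). Lipg, endothelial lipase, held 9.95 ± 1.23 CPM in WT and 13.6 ± 0.490 CPM in ADCY3∆AT (log2 0.44, edgeR adjusted p = 0.0687). Apoe, the ligand of Vldlr and Lrp1 and the list's highest gene by CPM, held 718 ± 66.1 CPM in WT and 815 ± 180 CPM in ADCY3∆AT (log2 0.18, edgeR adjusted p = 0.533). Apoc2, the activator of lipoprotein lipase that comes mainly from liver, had 1 to 9 estimated counts in a library and did not pass the filter, nor did Apoa5 and Lipc.

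Of the other angiopoietin-like genes 3 were tested, and edgeR, DESeq2 and limma-voom each called 0, with 1 at an unadjusted p under 0.05 (median log2 fold change -0.06). Angptl1 held 5.03 ± 1.02 CPM in WT and 2.99 ± 1.07 CPM in ADCY3∆AT (log2 -0.74, edgeR adjusted p = 0.167). Among 9 tested lipoprotein receptors beside the 10 genes, edgeR and limma-voom called 0 and DESeq2 called 2, with 4 at an unadjusted p under 0.05 (median log2 fold change 0.02). Lrp6, a receptor that also serves Wnt signalling, held 49.7 ± 2.67 CPM in WT and 66.0 ± 12.0 CPM in ADCY3∆AT (log2 0.41, edgeR adjusted p = 0.103). Scarb2, the highest by CPM, held 125 ± 16.2 CPM in WT and 127 ± 5.23 CPM in ADCY3∆AT (log2 0.02, edgeR adjusted p = 0.914, and -0.01 with upper-quartile scaling).

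Of 19 tested genes that take up and trap fatty acids, edgeR, DESeq2 and limma-voom each called 0, and 1 was at an unadjusted p under 0.05 (median log2 fold change -0.03, range -0.20 to 0.33). That gene was Dbi, the acyl-CoA binding protein, which held 1006 ± 14.9 CPM in WT and 878 ± 57.2 CPM in ADCY3∆AT (log2 -0.20, edgeR adjusted p = 0.143). Cav2, a caveolin, held 109 ± 11.7 CPM in WT and 96.0 ± 2.04 CPM in ADCY3∆AT (log2 -0.19, edgeR adjusted p = 0.228). Fabp4, the fatty acid binding protein of adipocytes, held 7776 ± 1118 CPM in WT and 6803 ± 279.6 CPM in ADCY3∆AT (log2 -0.19, edgeR adjusted p = 0.316).

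Among 18 tested lipid genes that respond to PPAR receptors, as Angptl4 and Cd36 do, 1 rose and 1 fell (median log2 fold change 0.07). Of all tested genes, edgeR called 2.63% higher and 1.67% lower. An unadjusted edgeR p under 0.05 was found for 4 of the 18, near the 22.6% of all tested genes. Pdk4, which holds back glucose oxidation, held 782, 1366 and 622 CPM in WT and 3617, 2808 and 2049 CPM in ADCY3∆AT (log2 1.61, SE 0.30, edgeR adjusted p = 0.0275). As for Angptl4, WT replicate 2 was the highest WT library and ADCY3∆AT replicate 1 the highest of all. Ucp3, a mitochondrial carrier, fell from 135, 148 and 120.0 CPM in WT to 82.7, 89.9 and 64.5 CPM in ADCY3∆AT (log2 -0.77, SE 0.13, edgeR adjusted p = 0.0196). Acadl, the most abundant by CPM, held 2433 ± 68.5 CPM in WT and 2428 ± 50.2 CPM in ADCY3∆AT (95% interval of the log2 fold change -0.14 to 0.14, edgeR adjusted p = 0.988). The call of Pdk4 ended without WT replicate 1, WT replicate 3 or ADCY3∆AT replicate 2, and that of Ucp3 without WT replicate 1 or WT replicate 2. Ucp3 is also made by skeletal muscle, and without WT replicate 3 its log2 fold change was -0.84.

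Of 16 regulators of lipase transcription, 1 fell, 0 rose and 9 had an unadjusted p under 0.05, against 22.6% of all tested genes (median log2 fold change 0.09). DESeq2 called 3 of them, Srebf1 lower and Foxo1 and Klf15 higher, and limma-voom called 1. Without WT replicate 1 edgeR also called Foxo1 higher, and without WT replicate 2, the WT library nearest to ADCY3∆AT for this gene, Ppara. Srebf1, which drives lipid synthesis genes, held 736, 596 and 702 CPM in WT and 248, 313 and 310.1 CPM in ADCY3∆AT (log2 -1.22, SE 0.11, edgeR adjusted p = 0.00235), and its call held in all 6 fits without 1 library.

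**Figure D4:**
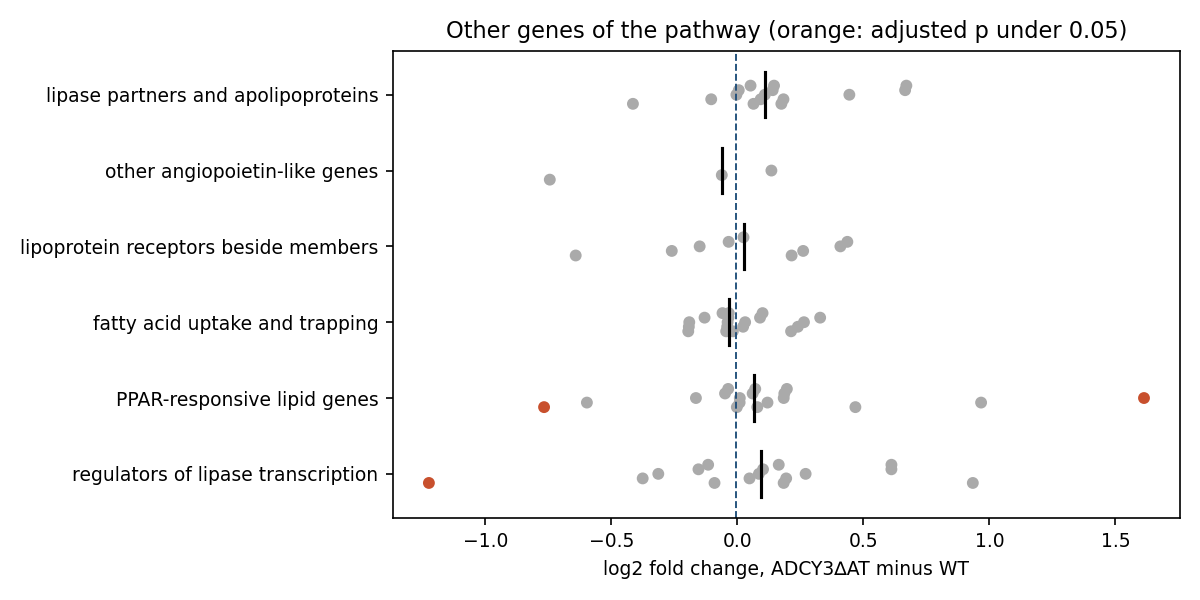
Each point is the log2 fold change (ADCY3∆AT minus WT) of 1 tested gene, orange where called, with list medians as black bars and the median of all tested genes as a dashed line. Pdk4 at 1.61, Ucp3 at -0.77 and Srebf1 at -1.22 were the called genes, and the list medians ran from -0.06 to 0.11.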

How the data were processed

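PolyA RNA of brown adipose tissue was sequenced as paired-end libraries, 3 per genotype, per the labels' protocols. Estimated counts per gene were deposited by the authors as 1 table, and the submitters' processing notes name GRCm38, StringTie, Salmon and edgeR without versions or roles. Strand use in counting is not given here. Columns were matched by the number in each sample's description, and symbols (54131 of 54385 rows) and lengths came from GENCODE M21. Replicate pairs had a chi-square per gene of 6.19 to 26.9, above sampling noise. Separate mice are not stated, so p-values measure the spread between libraries, which could be partly technical.

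Counts were rounded, filtered with filterByExpr (minimum count 10, total 15), scaled by TMM and tested with edgeR 4.0.16 (quasi-likelihood F, two-sided, Benjamini-Hochberg over 14332 genes, threshold 0.05) in R 4.3.3, after a check on simulated data. Single values and ratios (pseudocount 0.5 CPM) had exact permutation tests over libraries. Alternatives used DESeq2 1.42.0, limma 3.58.1, other scalings and filters, a replicate block, other pseudocounts and fits without 1 library. The members and lists were chosen with earlier results of these data known. Named were all members and, per list, up to 3 called genes with the smallest p, or 2 where none was called, and the highest by mean CPM. Some genes that this rule names are withheld and not reported here. Promoter sequences are from RefSeq (GRCm38.p6).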

Additional observations from a re-analysis of the deposited data

How the results depend on the processing

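Of 140 log2 fold changes of the 10 genes under alternatives, 123 kept their direction and their side of the threshold, 9 lost a call (those of Angptl4 and Angptl8), 3 gained one (Angptl2 by DESeq2 and without a filter, Lrp1 without a filter) and 5 changed sign. The changes of sign were Lmf1 without a filter on low counts (0.0038) and in fits without 1 library (-0.082 to 0.018), and Gpihbp1 (-0.068 to 0.20 in such fits). Of 110 ratio values 108 kept their direction, but for most of them this was fixed in advance and says nothing about stability. A ratio without overlap between genotypes cannot turn when 1 library is left out. Library scaling nearly cancels in a ratio, and the replicate block leaves the difference as it is. Gpihbp1 to endothelial markers, which overlapped, ran from -0.086 to 0.14 without 1 library. The Wald test of DESeq2 called 993 of 12938 genes with an adjusted p (7.68%), 3 of the 10 members and 9 of the 80 genes of the wider lists. Without a filter, 1951 of 34083 tested genes, 4 members and 14 of 90 genes of the wider lists were called. The main fit called 616 of 14332 (4.30%). The fit without a filter gave far smaller p-values for the called members, such as an edgeR adjusted p of 2.76e-35 for Angptl4. With limma-voom 1 member was called (Angptl4). The replicate number as a block gave 324 calls and 1 member (Angptl4). The labels do not say that the replicate numbers pair the libraries. Deviations of same-numbered libraries correlated at -0.01, 0.01 and -0.05, which shows no strong shared effect but cannot exclude a weak pairing. Ratios taken within replicate number had the same differences by construction, with 0.25 the smallest p that design allows. In fits without 1 library there were 162 to 461 calls, 0 to 2 members (0 without WT replicate 1 or WT replicate 3) and 2 to 5 genes of the wider lists, and these fits have fewer samples. The cause of the other differences was not tested.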

Other observations

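Ppara, a receptor that drives fatty acid oxidation genes and that was picked after its values were seen, held 23.3, 48.0 and 17.5 CPM in WT and 62.0, 56.7 and 49.9 CPM in ADCY3∆AT (log2 fold change 0.93, edgeR adjusted p = 0.131, and 1.47 with adjusted p = 0.0105 without WT replicate 2). WT replicate 2 was likewise the WT library nearest to ADCY3∆AT for Lpl (3528 CPM), Angptl2 (106 CPM), Angptl4 (142 CPM), Angptl8 (22.5 CPM), Vldlr (136 CPM), Lrp1 (211 CPM), Pdk4 (1366 CPM) and Srebf1 (596 CPM). For Cd36 (1489 CPM), Scarb1 (67.0 CPM) and Ucp3 (120.0 CPM) the nearest was replicate 3, and WT replicate 2 was the farthest for Scarb1 (61.2 CPM) and Ucp3 (148 CPM). Without WT replicate 2 the log2 fold change was 1.34 for Angptl4 and -1.67 for Angptl8. WT replicate 2 was singled out after the values were seen. Leaving out the WT library nearest to ADCY3∆AT widens a difference by design. The values of Ppara, Angptl4 and Angptl8 without WT replicate 2 are therefore a description and no test.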
